A study of Mus musculus with 18 samples.

Results

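The genes described here act as negative feedback on the RAS-MAPK pathway or are transcription factors switched on by it. They were chosen by name, as Dusp4, Dusp5, Dusp6, Spry1, Spry2, Spry4, Spred1, Spred2, Etv4 and Etv5. Of these 10 genes, 8 had at least 1 array probe set annotated to that symbol alone, which gave 14 probe sets of the 20380 with a single symbol. Dusp4 and Dusp5 had none and are not analysed here. The data come from 18 mouse lung tumours of 6 mice on a C57/B6-129SvJae background, taken at 10 weeks of age. Treated mice had received tamoxifen in 2 intraperitoneal injections, which restored p53, and their tumours were taken 7 days after the first injection. Untreated tumours came from mice without it, so their p53 was not restored. Groups were 6 treated and 4 untreated grade 3 tumours (adenocarcinomas) and 4 treated and 4 untreated grade 2 tumours (adenomas).

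The labels used here name neither the oncogenic allele nor the driver of the recombinase. Tumour names give the mouse and then the tumour, as in 8688T3. The female mouse 8688 gave 9 of the 10 treated tumours (6 of grade 3 and 3 of grade 2), and the male 8639 gave the treated grade 2 tumour 8639T4. The 8 untreated tumours came from the males 8565 (1 of grade 3 and 2 of grade 2), 8584 (1 of grade 3), 8629 (2 of grade 3) and 8700 (2 of grade 2). In grade 3, treatment, mouse and sex thus cannot be told apart, and since tumours of 1 mouse are not independent, the p-values given here are too small. Values are log2 signals normalised by the authors. Array medians ran from 6.05 to 6.18. Precision is limited by how many arrays each group has and by how few mice gave them. Treated grade 3 tumours came from 1 mouse, untreated grade 3 from 3, treated grade 2 from 2 and untreated grade 2 from 2. The tissue label matched its markers: 8 of 9 measured alveolar type 2 markers passed the filter on low signal described below, and Nkx2-1 was below the median of all 18 arrays. The 3' minus 5' log2 signal of the Gapdh and beta-actin controls, a sign of RNA quality, was 2.62 in 8688T3 and 1.85 in 8639T4, and between 0.62 and 1.05 in the other 16 tumours.

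In the MAPK pathway, activated RAS passes a signal through RAF and MEK to the ERK kinases, which enter the nucleus and turn on target genes. Some of these targets feed back on the pathway. DUSP6 is a cytoplasmic phosphatase that inactivates ERK, Sprouty and SPRED proteins hold back signalling from receptors and RAS to RAF, and ETV4 and ETV5 are ETS transcription factors that rise with ERK activity. Their mRNA is therefore widely used as a readout of ERK signalling. In lung epithelium the same genes act downstream of fibroblast growth factor during branching, and ETV5 also helps to maintain alveolar type 2 cells. The 4 groups differ in grade and in treatment, which makes these the 2 comparisons of interest.

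On all 18 arrays 8 of the 14 probe sets exceeded the array median: those of Dusp6 and Spry1, 1 each of Spry2, Spred2 and Etv5, and all 3 of Spred1. The other 6, namely both Spry4 probe sets, the Etv4 probe set and the second probe sets of Spry2, Spred2 and Etv5, lay below it on all 18. Where a gene had several probe sets, that with the highest mean stood for it. A gene entered the test if 4 or more arrays had it over their median, which kept 6 of the 8 genes and left Spry4 and Etv4 without a test. None of the 6 tested genes passed in any of the 5 comparisons, by limma with the mouse as a random block and Benjamini-Hochberg adjustment over 7300 genes at a threshold of 0.05. Unadjusted p-values under 0.05 were seen in 0 of these 30 member tests. Over all genes their share was 8.84% for treatment in grade 3, 6.99% in grade 2, 9.11% for the difference between grades, 12.5% for grade in untreated tumours and 1.93% for grade in treated tumours. Across all 7300 genes, 0.466% passed for treatment in grade 3, 0.0685% for treatment in grade 2, 0.178% for grade in untreated tumours, and 0% both for grade in treated tumours and for the difference of the treatment effect between grades. A count of 0 among 6 genes is therefore near the background and is no result about these genes. The intervals below come from the same fit as the p-values. Since tumours of a mouse are not independent, these intervals are too narrow and do not bound the sizes that the data allow.

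**Figure D1:**
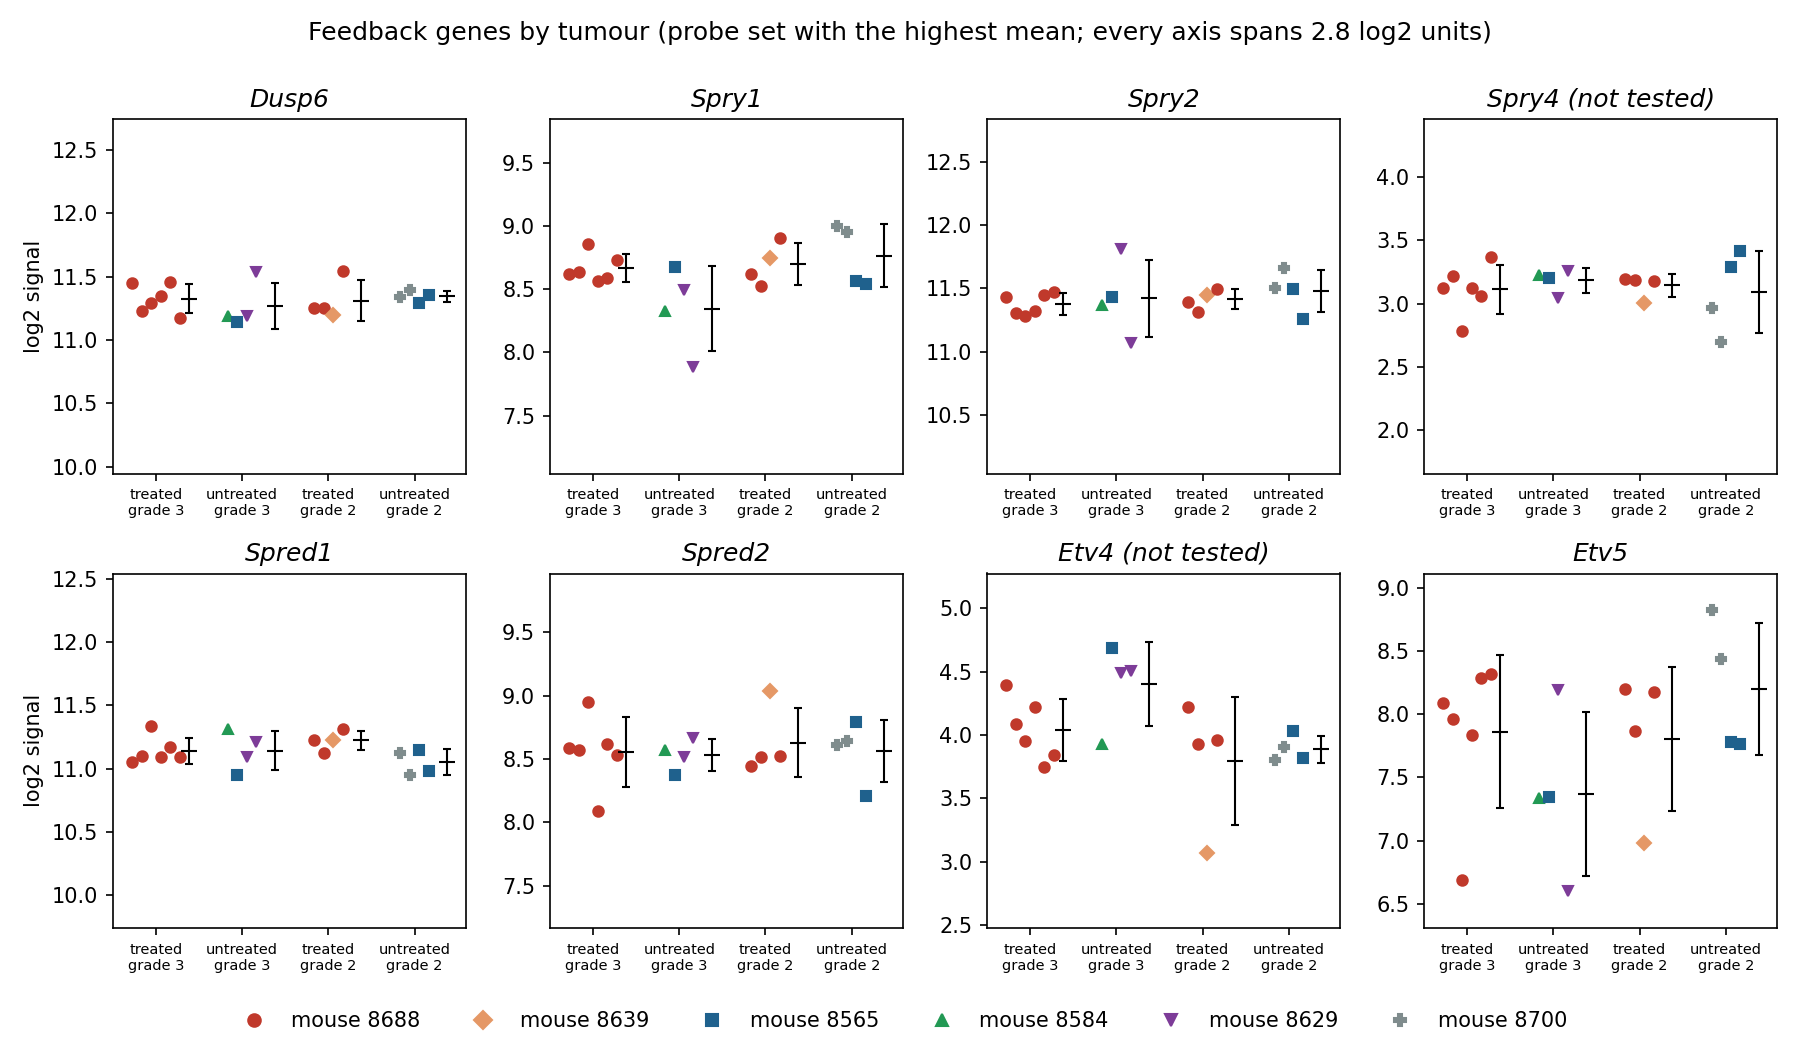
Log2 signal (vertical axis) of the 8 measured feedback genes in each of the 18 tumours, by group (horizontal axis). Points are tumours with the mouse given by colour and shape, black bars are group means with SD, and every axis spans the same number of log2 units. All tumours lay between 11.14 and 11.55 for Dusp6 and between 10.95 and 11.33 for Spred1, while Etv5 ran from 6.60 to 8.82.

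Dusp6, which encodes an ERK phosphatase, was strongly detected and nearly level in mRNA. ERK activity itself was not measured. In treated grade 3 tumours its log2 signal had a lowest value of 11.18, a median of 11.32 and a highest value of 11.46. The untreated grade 3 tumours 8584T3, 8565T1, 8629T10 and 8629T12 had Dusp6 signals of 11.19, 11.14, 11.19 and 11.54. It stood at 11.25, 11.25, 11.20 and 11.55 in the treated grade 2 tumours 8688T8, 8688T9, 8639T4 and 8688T10, and at 11.34, 11.39, 11.29 and 11.36 in the untreated grade 2 tumours 8700T1, 8700T3, 8565T3 and 8565T4. All 4 groups overlapped, and the highest tumours were 8688T10 and 8629T12. The fitted log2 difference was 0.04 for treatment in grade 3 (95% confidence interval -0.24 to 0.32, limma adjusted p = 0.933) and -0.06 in grade 2 (-0.34 to 0.22, adjusted p = 0.934). Grade 3 minus grade 2 was -0.10 in untreated tumours (-0.35 to 0.15, adjusted p = 0.737) and 0.00 in treated tumours (-0.20 to 0.20, adjusted p = 0.999). Its SD over the 18 tumours was 0.12, against a median of 0.23 over all probe sets with 1 symbol. A small SD was not particular to Dusp6, as the tested probe sets of Spred1 and Spry2 had 0.12 and 0.16.

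Sprouty proteins are induced by receptor tyrosine kinases and restrain the same receptors. Spry1 had a lower mean in untreated tumours of grade 3 than of grade 2, but the difference did not pass the test. Its log2 signal was 8.33, 8.68, 8.49 and 7.89 in the untreated grade 3 tumours 8584T3, 8565T1, 8629T10 and 8629T12, against 9.0, 8.95, 8.56 and 8.54 in the untreated grade 2 tumours 8700T1, 8700T3, 8565T3 and 8565T4. The groups overlapped through mouse 8565, whose grade 3 tumour lay above both of its grade 2 tumours, and the highest values were the 2 tumours of 8700. The fitted difference of grade in untreated tumours was -0.32 (95% confidence interval -0.67 to 0.04, adjusted p = 0.450). With the mouse as a fixed block, which for untreated tumours compares grades within 8565 alone, the difference turned to 0.13 (adjusted p = 0.999). Treated grade 3 tumours had a lowest Spry1 signal of 8.57, a median of 8.63 and a highest of 8.86, and the treated grade 2 tumours had 8.62, 8.53, 8.75 and 8.90. The treatment difference was 0.28 in grade 3 (-0.11 to 0.67, adjusted p = 0.675) and -0.01 in grade 2 (-0.41 to 0.39, adjusted p = 0.992). Without 8629T12, the tumour with the lowest signal, the difference in grade 3 was 0.14 and that of grade in untreated tumours -0.19.

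Markers of endothelial cells also had lower levels in untreated tumours of grade 3 than of grade 2, without passing the test. All 10 listed markers were measured, none was under the median of all arrays, and their mean log2 signal ran from 7.43 to 8.25 in untreated grade 3 and from 8.03 to 8.98 in untreated grade 2 tumours. Of these 10, all had fitted differences of grade below 0, with a median of -0.64, against -0.00 over all genes, and 0 passed over all genes. Fibroblast markers, with 10 of 10 measured and Lum under the median throughout, ran from 8.88 to 9.60 and from 9.58 to 10.13 in the same groups, and 8 of 9 tested were below 0. One of them, Fbln1, a matrix glycoprotein gene, fell by 1.95 (SE 0.35, adjusted p = 0.0248), where 0.178% of all genes passed. With the mouse as a fixed block, and with 1 mean per mouse and group, 0 of 7300 genes passed, so that call was lost in both. Alveolar type 2 markers ran from 10.90 to 11.32 and from 11.03 to 11.70, with 8 of 8 tested below 0. T and NK cell markers, of which 9 of 10 were measured with Cd4 and Nkg7 under the median throughout, ran from 4.64 to 6.27 and from 5.82 to 6.70. All 5 of those tested were below 0, with a median of -0.71, and 0 passed. Macrophage markers, with 9 of 11 measured, ran from 9.80 to 9.93 and from 9.70 to 10.15, with 4 above 0 and 5 below. The part of these cell types in the Spry1 and Etv5 values was not tested, and in bulk tumours fewer cells of a type and less RNA per cell cannot be told apart.

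Spry2, a second Sprouty gene that is prominent in the developing lung, was measured by a pair of probe sets that gave unlike patterns. The brighter probe set was strongly detected, with a range of 11.07 to 11.81 over the 18 tumours. Its untreated grade 3 values in 8584T3, 8565T1, 8629T10 and 8629T12 were 11.37, 11.44, 11.81 and 11.07, so that both extremes of the series were tumours of mouse 8629. The fitted difference was -0.05 for treatment in grade 3 (95% confidence interval -0.38 to 0.29, adjusted p = 0.94), -0.06 in grade 2 (-0.40 to 0.29, adjusted p = 0.958) and -0.04 for grade in untreated tumours (-0.35 to 0.26, adjusted p = 0.930).

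The dimmer Spry2 probe set lay below the median of each array, yet its values parted by mouse. Its log2 signal was 5.55 and 5.66 in the tumours of 8700, 4.82, 5.03 and 5.26 in those of 8565, and 4.78 in that of 8584. It was 3.54 and 3.20 in the tumours of 8629, 3.40 in 8639T4 and between 3.09 and 3.57 in the 9 tumours of 8688. The low values were thus shared by both treated mice and by the untreated mouse 8629. Its groups did not overlap for treatment in grade 2, nor for grade in untreated tumours, as held for 7.34% and 6.44% of all probe sets with 1 symbol.

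When every probe set with 1 symbol was tested without a filter, the dimmer Spry2 probe set was the only one of the 14 that passed anywhere. It fell by 1.89 for treatment in grade 2 (SE 0.31, limma adjusted p = 0.0194), where 0.0638% of 20380 probe sets passed. Since the probe set is under the median of every array, the sizes of its differences are not exact. Treated tumours averaged 3.40 ± 0.12 (SD, n = 4), and untreated ones 5.37 ± 0.29 (SD, n = 4). The call was lost without mouse 8700 (adjusted p = 0.268), with 8688T3 and 8639T4 both left out (0.0752), with 1 mean per mouse and group (1.0) and with sex as a covariate (0.202). In grade 3 the fitted difference was -0.88 (SE 0.30, adjusted p = 0.292), with 0.447% of probe sets passing. Mouse 8629, the untreated mouse with low values, made this difference smaller. Its tumours had 3.54 and 3.20, within the range of 3.09 to 3.57 of the treated grade 3 tumours. The larger difference without that mouse follows from leaving those values out. Grade 3 minus grade 2 in untreated tumours was -1.10 (SE 0.28, adjusted p = 0.135), with 0.142% passing. With the mouse as a fixed block it was -0.33 (adjusted p = 0.999). Treatment and mouse cannot be told apart here, and the brighter probe set of the same gene showed no such split. No probe set of the array passed for grade in treated tumours or for the difference between grades in this fit (0% in each), while 2 of the 14 had an unadjusted p under 0.05 for treatment in grade 3, 1 in grade 2, 1 for the difference between grades, 2 for grade in untreated tumours and 0 for grade in treated tumours. Over all 20380 probe sets the shares were 9.02%, 6.46%, 7.65%, 11.9% and 1.64% in the same order.

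**Figure D2:**
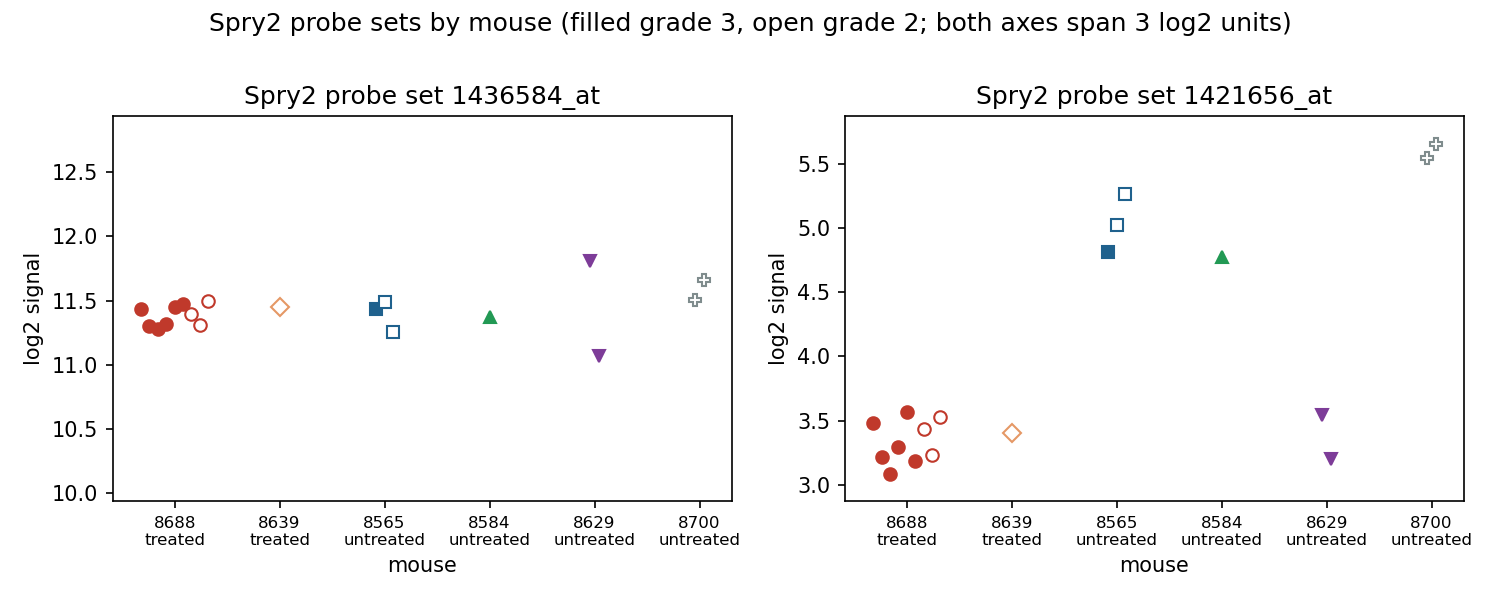
Log2 signal (vertical axis) of the 2 Spry2 probe sets in each tumour, by mouse (horizontal axis), with grade 3 tumours filled and grade 2 tumours open. Both axes span the same number of log2 units. The left probe set lay between 11.07 and 11.81 in all mice, whereas the right one lay at 3.57 or below in mice 8688, 8639 and 8629 and at 4.78 or above in 8565, 8584 and 8700.

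As a description only, promoter windows of the members were read from RefSeq sequence of build GRCm38.p6. In the windows of 300 bases, from 250 before to 50 after each start, 4 motifs were searched on both strands: the ETS site CCGGAAGT, its core CCGGAA, which it contains, the AP-1 site TGANTCA and the CRE site TGACGTCA. Windows were found for 7 of the 10 genes, Spred1, Spry1, Dusp6, Spred2, Spry2, Etv5 (with 2 windows) and Dusp5. The only match was the ETS core in the Spry2 window, 34 to 39 bases into the transcript on its minus strand gene, and 14.9% of 32851 promoter windows hold that core. The shares were 3.89% for the longer ETS site, 7.81% for AP-1 and 1.79% for CRE. The 30 bases at chr14:105896770-105896799 are shown in gene orientation with the core in capitals:
Spry2: gaggtcatctatcCCGGAAtccgggagggt

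Spry4, which like Spry2 is a standard readout of ERK output, had its probe sets close to the floor of the array. The brighter ranged from 2.70 to 3.42 and the dimmer from 2.28 to 2.62, so at this signal over background no difference of Spry4 was detectable. The fitted treatment difference of the brighter was -0.07 in grade 3 (SE 0.16, adjusted p = 0.925) and 0.03 in grade 2 (SE 0.16, adjusted p = 0.992).

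SPRED proteins bind neurofibromin and bring it to the membrane, where it turns RAS off. Spred1 was strongly detected and held steady, with values of 10.95 to 11.33 over all tumours in the probe set used for the test. In grade 2 its signal was 11.23, 11.12, 11.23 and 11.31 in the treated tumours 8688T8, 8688T9, 8639T4 and 8688T10, against 11.12, 10.95, 11.15 and 10.98 in the untreated tumours 8700T1, 8700T3, 8565T3 and 8565T4. The treated values lay mostly above the untreated ones, with overlap at 8688T9. The fitted difference was 0.15 (95% confidence interval -0.11 to 0.40, adjusted p = 0.849). In grade 3 it was 0.01 (-0.25 to 0.26, adjusted p = 0.991), and grade 3 minus grade 2 in untreated tumours was 0.06 (-0.17 to 0.29, adjusted p = 0.850). The other probe sets of Spred1 ranged from 10.50 to 11.59 and from 8.08 to 9.16. Their fitted treatment differences were -0.19 and -0.16 in grade 3, and 0.27 and -0.13 in grade 2, with no passing value. In both of these probe sets 8688T3 was the lowest treated grade 3 tumour and 8639T4 the lowest treated grade 2 tumour, the 2 tumours with the highest 3' excess, while in the tested probe set 8688T3 was the highest of its group.

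Spred2, the second SPRED gene, ran from 8.09 to 9.04 in its brighter probe set. Grade 3 means were 8.56 ± 0.27 (SD, n = 6) with treatment and 8.53 ± 0.12 (SD, n = 4) without it. Grade 2 means were 8.63 ± 0.28 (SD, n = 4) with treatment and 8.56 ± 0.25 (SD, n = 4) without it. The highest values of the series were 9.04 in 8639T4 and 8.95 in 8688T3, again the 2 tumours with the highest 3' excess. The fitted treatment difference was 0.12 in grade 3 (95% confidence interval -0.31 to 0.55) and 0.10 in grade 2 (-0.34 to 0.53). Without those 2 tumours the differences were -0.05 and -0.09, so that both turned, with neither passing. With sex as a covariate they moved the other way, to 0.57 and 0.46, again with neither passing. The first of these is above the upper limit of its interval. Both rest on 8639T4, the male treated tumour. The second Spred2 probe set stayed between 2.53 and 2.93.

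**Figure D3:**
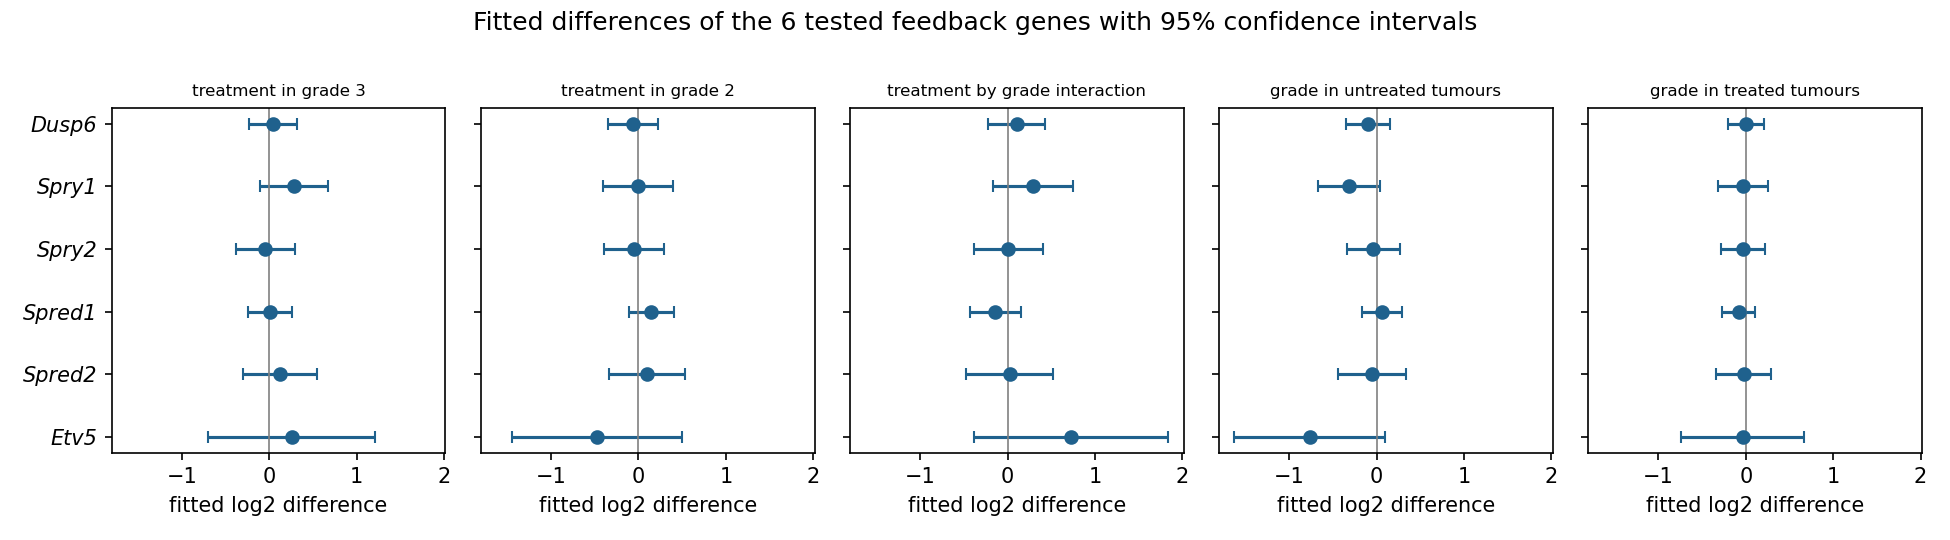
Fitted log2 differences (horizontal axis) with 95% confidence intervals for the 6 tested feedback genes (vertical axis) in the 5 comparisons, from limma with the mouse as a random block. Every interval crosses 0, and those of Etv5 are the widest.

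ETV4 and ETV5 are closely related ETS factors that ERK signalling induces. Etv5 had the widest spread among the tested genes, with an SD of 0.61 over the 18 tumours. Treated grade 3 tumours had a lowest Etv5 log2 signal of 6.69, in 8688T3, a median of 8.03 and a highest of 8.32. The untreated grade 3 tumours 8584T3, 8565T1, 8629T10 and 8629T12 had 7.34, 7.35, 8.19 and 6.60, so the tumours of 1 mouse, 8629, spanned this group. Treated grade 2 tumours 8688T8, 8688T9, 8639T4 and 8688T10 had 8.20, 7.86, 6.98 and 8.17, and the untreated grade 2 tumours 8700T1, 8700T3, 8565T3 and 8565T4 had 8.82, 8.44, 7.78 and 7.76. All groups compared overlapped, and the 3 lowest tumours were 8629T12, 8688T3 and 8639T4. Of these, 8688T3 and 8639T4 had the highest 3' excess, and 8629T12, at 0.67, did not.

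The fitted difference of Etv5 for grade in untreated tumours was -0.77 (95% confidence interval -1.63 to 0.09, adjusted p = 0.457). Within mouse 8565, the 1 untreated mouse with both grades, the grade 3 tumour at 7.35 lay below the grade 2 tumours at 7.78 and 7.76, a fitted difference of -0.42 with the mouse as a fixed block (adjusted p = 0.999). Without 8629T12 the difference was -0.54 and without 8629T10 it was -0.96. For treatment it was 0.26 in grade 3 (-0.70 to 1.21, adjusted p = 0.879) and -0.47 in grade 2 (-1.45 to 0.50, adjusted p = 0.860). The treatment difference in grade 3 minus that in grade 2 was 0.73 (-0.38 to 1.84, adjusted p = 0.650). Without 8688T3 and 8639T4 the grade 3 difference was 0.68 (adjusted p = 0.760) and the grade 2 difference -0.10 (adjusted p = 0.960). With sex as a covariate the grade 3 difference turned to -0.65 (adjusted p = 0.706), a value that rests on 8639T4, the male treated tumour, and without 8629T12 it turned to -0.04. The second Etv5 probe set was dimmer than the array median and ranged from 4.51 to 5.76, with a grade difference of -0.15 in untreated tumours (SE 0.25, adjusted p = 0.856).

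**Figure D4:**
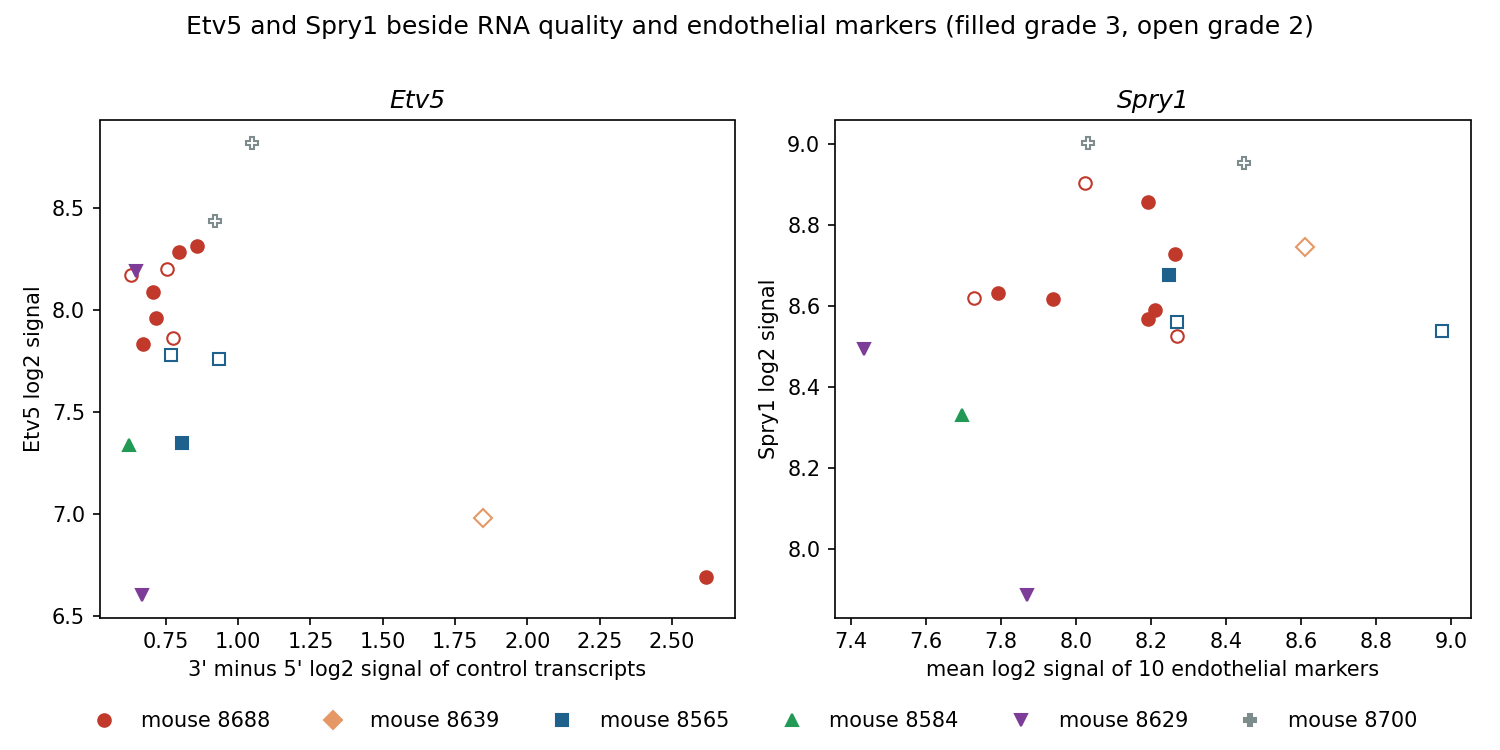
Left, Etv5 log2 signal (vertical axis) against the 3' minus 5' log2 signal of control transcripts (horizontal axis). Right, Spry1 log2 signal against the mean log2 signal of 10 endothelial markers, with points for the 18 tumours by mouse, filled for grade 3 and open for grade 2. The 2 tumours farthest right on the left plot, 8688T3 at 2.62 and 8639T4 at 1.85, had Etv5 values of 6.69 and 6.98, and the lowest Spry1 value on the right was 7.89 in 8629T12.

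Etv4, which is not tested in the filtered fit, was under the median of all 18 arrays, so the sizes of its differences are not exact. Its log2 signal was 3.93, 4.68, 4.49 and 4.51 in the untreated grade 3 tumours 8584T3, 8565T1, 8629T10 and 8629T12. The untreated grade 2 tumours 8700T1, 8700T3, 8565T3 and 8565T4 had 3.80, 3.90, 4.03 and 3.81. Of the untreated grade 3 tumours 3 lay above every untreated grade 2 tumour, and 8584T3 lay among them. Within mouse 8565 the grade 3 tumour stood at 4.68 and the grade 2 tumours at 4.03 and 3.81. The fitted difference of grade in untreated tumours was 0.54 (SE 0.22, unadjusted p = 0.0226 by limma over every probe set), which did not pass after adjustment (adjusted p = 0.330). Treated grade 3 tumours ran from 3.75 to 4.40 with a median of 4.02, a difference of -0.50 (SE 0.23, adjusted p = 0.537). The treated grade 2 tumours had 4.22, 3.92, 3.07 and 3.96, a difference of -0.13 (SE 0.24, adjusted p = 0.957) with 8639T4 the lowest tumour of the series. Etv4 and Etv5 thus had fitted grade differences of opposite sign in untreated tumours, neither of which passed.

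The signs of the fitted differences are given here as counts, since none passed. For treatment in grade 3, 5 of 6 had a difference above 0 with a median of 0.08, against 0.04 over all 7300 genes. In grade 2, 2 of 6 were above 0 with a median of -0.03, against 0.02. For the difference of the treatment effect between grades, 5 of 6 were above 0 with a median of 0.06, against 0.02. For grade in untreated tumours 5 of 6 were below 0 with a median of -0.08, against -0.00 over all genes, and in treated tumours 5 of 6 were below 0 with a median of -0.03, against 0.02. These comparisons share tumours, so their values are not independent of each other. Apart from the dimmer Spry2 probe set, none of the 14 probe sets had groups without overlap, which held for 4.33% of all probe sets for treatment in grade 3 and 0.584% for grade in treated tumours.

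Over the 18 tumours of 6 mice, which share arrays' normalisation and mice, the highest Pearson correlations among the 8 measured members were 0.61 between Spry2 and Etv5, 0.52 between Spry1 and Spry2 and 0.50 between Spry1 and Etv5. The tumour 8629T12 had the lowest value of the series in each of Spry1, Spry2 and Etv5, so these correlations share it. Dusp6 correlated with the other members between -0.24 and 0.14. The lowest value was -0.51 between Spry1 and Spry4, and Spry4 was close to the floor. The genes most like Spry2 over these tumours were Pard3, a polarity gene (0.80), Slain1 (0.78), Galc (0.77), Exoc8 (0.74) and Btc, which encodes the EGF receptor ligand betacellulin (0.73). Those most like Dusp6 were Ccnl2 (0.67), Crim1 (0.66), Msh6 (0.65), Tma16 (0.60) and Ints13 (0.56). Those most like Etv4 were Pcbd1 (0.91), Hpn (0.90), Mrps11 (0.89), Pglyrp1 (0.87) and Ezh2, the histone methyltransferase of Polycomb (0.85). Etv4 was under the median of all arrays, and the Spearman correlations of the pairs in these lists ran from 0.46 to 0.88. All of these are descriptions of 18 values with no test.

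Other genes of the pathway were read in the same fit, from lists chosen by role. The ERK cascade list, from adaptors and RAS to RAF, MEK and ERK with RAS GTPase-activating proteins, had 15 of 26 genes tested, and 0 passed in any comparison. Its median difference was -0.04 for treatment in grade 3, 0.01 in grade 2 and 0.09 for grade in untreated tumours. In that last comparison 1 of 15 genes had an unadjusted limma p under 0.05, against 12.5% of all genes. Map2k1, which encodes the ERK activator MEK1, averaged 10.73 ± 0.29 (SD, n = 6) with treatment and 10.76 ± 0.09 (SD, n = 4) without it in grade 3, and 10.68 ± 0.33 (SD, n = 4) with treatment and 10.72 ± 0.14 (SD, n = 4) without it in grade 2. The RAF inhibitor gene Pebp1 had a grade difference of -0.12 (SE 0.20, adjusted p = 0.827) in untreated tumours.

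Among other dual-specificity phosphatases 10 of 20 were tested and 0 passed. Their median was 0.06 for treatment in grade 3, -0.06 in grade 2 and -0.15 for grade in untreated tumours. In that last comparison 4 of 10 had an unadjusted limma p under 0.05, against 12.5% of all genes. Dusp3, Dusp12 and Dusp18 were below 0 (-0.47, -0.35 and -0.48) and Dusp22 above it (0.30). Dusp1, an immediate early phosphatase that acts on JNK and p38, averaged 10.36 ± 0.41 (SD, n = 4) in grade 3 and 10.91 ± 0.20 (SD, n = 4) in grade 2 without treatment. The fit put the difference at -0.44 (SE 0.21, adjusted p = 0.412). Dusp3 differed by -0.47 (SE 0.22, adjusted p = 0.383) in the same comparison.

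Of the 12 other feedback regulators 6 were tested and 0 passed. Errfi1, which inhibits the EGF receptor, averaged 12.87 ± 0.08 (SD, n = 6) with treatment and 12.77 ± 0.07 (SD, n = 4) without it in grade 3. The fit put the difference at 0.13 (SE 0.11, adjusted p = 0.751). Socs2, which restrains cytokine signalling, differed by 0.33 (SE 0.20, adjusted p = 0.651). Of 24 other genes of ERK output 18 were tested and 0 passed. Their median was -0.13 for treatment in grade 3, -0.11 in grade 2 and -0.05 for grade in untreated tumours. In that last comparison 5 of 18 had an unadjusted limma p under 0.05, against 12.5% of all genes, with some above 0 and some below. For treatment in grade 2 it was 4 of 18, against 6.99%, all with lower signal in treated tumours. These were Fos (-0.90), Egr1 (-0.75), Ccnd1 (-0.65) and Pea15a (-0.40). For treatment in grade 3 it was 2 of 18, against 8.84%, and for the difference between grades 3 of 18, against 9.11%. The ETS factor genes Ets2 and Elk4 differed by -0.38 (SE 0.24, adjusted p = 0.512) and -0.31 (SE 0.16, adjusted p = 0.444) for grade in untreated tumours. Of 21 receptor tyrosine kinases and ligands 11 were tested and 0 passed. Their median was 0.15 for treatment in grade 3, -0.05 in grade 2 and -0.17 for grade in untreated tumours. In that last comparison 3 of 11 had an unadjusted limma p under 0.05, against 12.5% of all genes, and not all had the same sign. For treatment in grade 2 it was 3 of 11, against 6.99%, namely Tgfa (0.79, adjusted p = 0.278), Fgfr2 (-0.54) and Fgf1 (-0.45). It was 3 of 11 for the difference between grades, against 9.11%, and 2 of 11 for grade in treated tumours, against 1.93%. This list shares genes with the endothelial and fibroblast markers above, so it is not separate from them. Fgfr2, a receptor of the epithelium for fibroblast growth factors, averaged 11.02 ± 0.16 (SD, n = 4) with treatment and 11.56 ± 0.36 (SD, n = 4) without it in grade 2. The fit put the difference at -0.54 (SE 0.17, adjusted p = 0.446). The mesenchymal receptor gene Pdgfra differed by 0.43 (SE 0.25, adjusted p = 0.645) for treatment in grade 3.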

How the data were processed

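The deposited values are log2 signals of probe sets. The authors used GCRMA (version 2.20.0) with R (version 2.11.0), per the submitters' processing notes, on 100 ng of total RNA per tumour, per the labels. This step quantile normalises the arrays, so differences in total RNA are removed. Background and normalisation could not be changed from these values. The members and lists were chosen with earlier results of these data known.

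Of 22690 probe sets, 20380 had 1 symbol in the platform annotation, for 12393 genes, and 20351 matched the reference by gene ID. Means of the 4 groups were fitted over 18 tumours in limma (version 3.58.1, R 4.3.3), with the mouse as a random block (correlation 0.259, 14 residual and 3.8 prior degrees of freedom), across 7300 genes. Fitted differences can deviate from differences of group means. All members were named, with up to 4 passing genes per list or, where none passed, the 2 with the highest mean, and 5 genes most like Dusp6, Etv4 and Spry2. Further list genes were named for an unadjusted p under 0.05 after their values were seen. Mice were read from the tumour names. Pairing by mouse was possible for grade only. The fitting code was tested on simulated data.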

Additional observations from a re-analysis of the deposited data

Results flagged for a closer look

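In 56 groups of values, 14 probe sets in 4 groups each, 7 held a tumour far from the rest of its group, where chance gives about 5%. For Dusp6, 8629T12 stood at 11.54 against 11.14 to 11.19 in the other untreated grade 3 tumours, and 8688T10 at 11.55 against 11.20 to 11.25 in the other treated grade 2 tumours. The tumour 8688T3, which has the highest 3' excess, was low among treated grade 3 tumours for Etv5 (6.69 against 7.83 to 8.32) and for Spred1 (10.75 against 11.17 to 11.28 in a probe set not used for the test). The tumour 8639T4, which has the next highest 3' excess, was high among treated grade 2 tumours for Spred2 (9.04 against 8.44 to 8.52) and low for Spry4 (3.01 against 3.18 to 3.19). In the untreated grade 2 group 8565T3 was low for Spred1 (8.41 against 8.64 to 8.68 in another such probe set).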

How the results depend on the processing

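The number of feedback genes that passed was 0 in each comparison, and it was 0 in 155 of 156 recounts under 32 alternatives, of which leaving out each tumour in turn gave 0 throughout. The exception among these recounts was 1 gene for treatment in grade 2, through the dimmer Spry2 probe set, when every probe set was tested without a filter, an alternative added after seeing the data, as were those below and that without 8688T3 and 8639T4 together. Within that unfiltered fit the same probe set also passed for treatment in grade 3 without mouse 8629 (-1.54, adjusted p = 0.00229), which takes out the low untreated values and so is no test, and for grade in untreated tumours without mouse 8584 (-1.41, adjusted p = 0.0263) and with no mouse term (-1.29, adjusted p = 0.0412). The 30 differences of tested members gave 931 values under the alternatives, none of which passed (lowest adjusted p 0.107), and 86 had the other sign, in 18 differences of at most 0.32 in size. No direction was called for any of these. The lowest adjusted p was that of Spry2 for treatment in grade 2 with the mean of the gene's probe sets. There the dimmer probe set was averaged in, and the difference was -0.96 in place of -0.06. With the mouse as a fixed replicate block, which could not be fitted for treatment, 0 members passed for grade. The count over all genes rested on the setting: 34 for treatment in grade 3 became 272 with no mouse term, 0 with 1 mean per mouse and group and 12 to 168 without 1 tumour. The 5 for treatment in grade 2 became 37, 0 and 2 to 35, and the 13 for grade in untreated tumours 111, 0 and 2 to 98. For the difference between grades, 0 became 0, 0 and 0 to 14. The cause was not tested. Signal near background limits Spry4, Etv4 and the second probe sets of Spry2, Spred2 and Etv5.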
